A study of Mus musculus with 6 samples.

Results

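The rodent long terminal repeat families numbered with the prefix RLTR were described here, in mouse embryonic stem (ES) cells moved from serum to a medium that lowers DNA methylation. The families were chosen by name alone: each transposon family of the tables whose name starts with RLTR and a digit was taken, except the RLTR4 and RLTR6 families proper, which left 44 of 302 families. Of the 44, 8 carry the ending -int, which names the internal part of an element, and 36 carry the name of a long terminal repeat (LTR). The study merged the internal and LTR fragments of the same copy in its annotation. A family ending in -int may therefore hold reads on the LTRs of its copies, which could not be separated here. The names give 24 numbered groups, of which 10 hold at least 2 families and 14 hold 1.

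The RNA came from wild-type J1 ES cells, a single mouse line grown without feeder cells on gelatin. At D0 the cells were in serum medium with LIF. At D6 and D13 they had been moved to 2i+vitC, a medium of neurobasal and DMEM/F12 with LIF, the Gsk3 inhibitor CT-99021, the MEK inhibitor PD0325901 and vitamin C. Each day had 2 biological replicates, 6 samples in all, and the medium, the inhibitors, vitamin C and the days in culture cannot be told apart, because no sample stayed in serum to D6 or D13.

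An endogenous retrovirus is the remnant of a retrovirus that entered the germ line. Its LTRs flank the protein-coding internal part and carry the promoter and often enhancer sequences, and recombination between the LTRs leaves many solitary LTRs behind. In mouse ES cells these elements are held silent by DNA methylation and by KAP1 and SETDB1, which place H3K9 methylation on them, while transcription factors of pluripotency bind the LTRs of some families. RLTR9, RLTR10, RLTR13 and RLTR45 belong to the betaretrovirus-like elements called ERVK, and RLTR1B belongs to the gammaretrovirus-like ones.

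Levels are the deposited log2 CPM, the log2 of counts scaled to a common library size. A sample held 73230745 to 83688345 gene reads plus 725940 to 1896202 weighted transposon reads, and 3 reads came to at most 0.042 CPM. A read that mapped to several places was divided among them, so related families can share reads. A family sums many dispersed copies, and single copies were not analysed here. The levels are not divided by length or copy number, so a level is compared between samples and not between families. Bulk RNA cannot tell fewer transcribing cells from less RNA per cell. The summed CPM of the ES cell markers (10 of 10 listed genes measured) was high on each day. It was 4631 to 4779 at D0, 6813 to 6955 at D6 and 6244 to 7775 at D13. Single markers went in both directions. From D0 to D6, Nanog and Tfcp2l1 were called up and Utf1 was called down, by a log2 difference of -2.10. Over all genes 5.91% were called up and 3.9% down. From D0 to D13, Tfcp2l1 was called up and Utf1 down, the latter by -2.96, beside 7.45% of genes up and 6.01% down. Pou5f1, the core pluripotency factor also called Oct4, had a log2 CPM of 9.94 and 9.63 at D0, 9.63 and 9.70 at D6, then 10.18 and 9.46 at D13. The summed levels of genes of other cell types moved with the days, and their part in the results was not tested. The summed CPM of the trophoblast list (5 of 7 genes measured) was 181 to 208 at D0, 110 to 114 at D6 and 95.8 to 103 at D13, while its defining genes Cdx2 and Elf5 had no row in the tables. That of the 2-cell-like list (3 of 7 measured) was 8.34 to 10.4, 3.38 to 3.98 and 0.26 to 0.553. For the primitive endoderm list (4 of 7 measured) it was 19.3 to 21.7, 3.68 to 5.59 and 5.46 to 5.79. For the fibroblast list (3 of 7 measured) it was 10.1 to 29.7, 4.86 to 5.11 and 5.50 to 5.62. Within the trophoblast and primitive endoderm lists the genes differed. By D6, Krt8 and Krt18 of the trophoblast list were called down, where 3.9% of genes were. Tfap2c was not called, at 4.95 and 6.04 at D0, then 6.49 and 6.54. In the primitive endoderm list Dab2 and Amn were called down, with Dab2 at 3.99 and 4.07, then -0.61 and 0.02. Pdgfra and Sox17 were not called. In the 2-cell-like list the 3 measured genes, Zscan4c, Zscan4d and Zscan4f, were each called down from D0 to D13. Their differences were -4.30, -4.75 and -5.41, where 6.01% of genes were called down. In the fibroblast list Col1a2 was called down from D0 to D13, at -3.86, while Col1a1 and Thy1 were not called. Col1a1 was at 4.21 and 1.87 at D0.

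Between D0 and D6, 12 of the 44 RLTR families were up-regulated and 0 were down-regulated. A family was called when it differed by more than 2-fold with a Benjamini-Hochberg adjusted p under 0.05 in limma, adjusted over all 12928 genes and families. The 12 families called up make up 27.3% of the RLTR families, where 12.9% of all 302 families were called up and 0% down. At an unadjusted p under 0.05, without a fold threshold, the RLTR counts were also 12 up and 0 down. The share of all families at this unadjusted p was not counted, here or in the other comparisons. The median difference was 0.28 over the 44 families and 0.18 over all 302, on the log2 scale. Families under both kinds of name were called up, 4 of 8 ending in -int and 8 of 36 with an LTR name. This split was not counted over all 302 families, and the internal families held most of the RLTR reads. In the plot of the differences by family, the called families run on from those not called. RLTR10-int was called at 1.19, while RLTR13E at 0.92 and RLTR13A1 at -1.23 were not. Both D6 samples lay above both D0 samples in 14 of the 44 RLTR families, where 24.5% of all 302 families did so. They lay below in 1 of the 44, RLTR13A1, where 1.99% of all 302 did so.

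**Figure D1:**
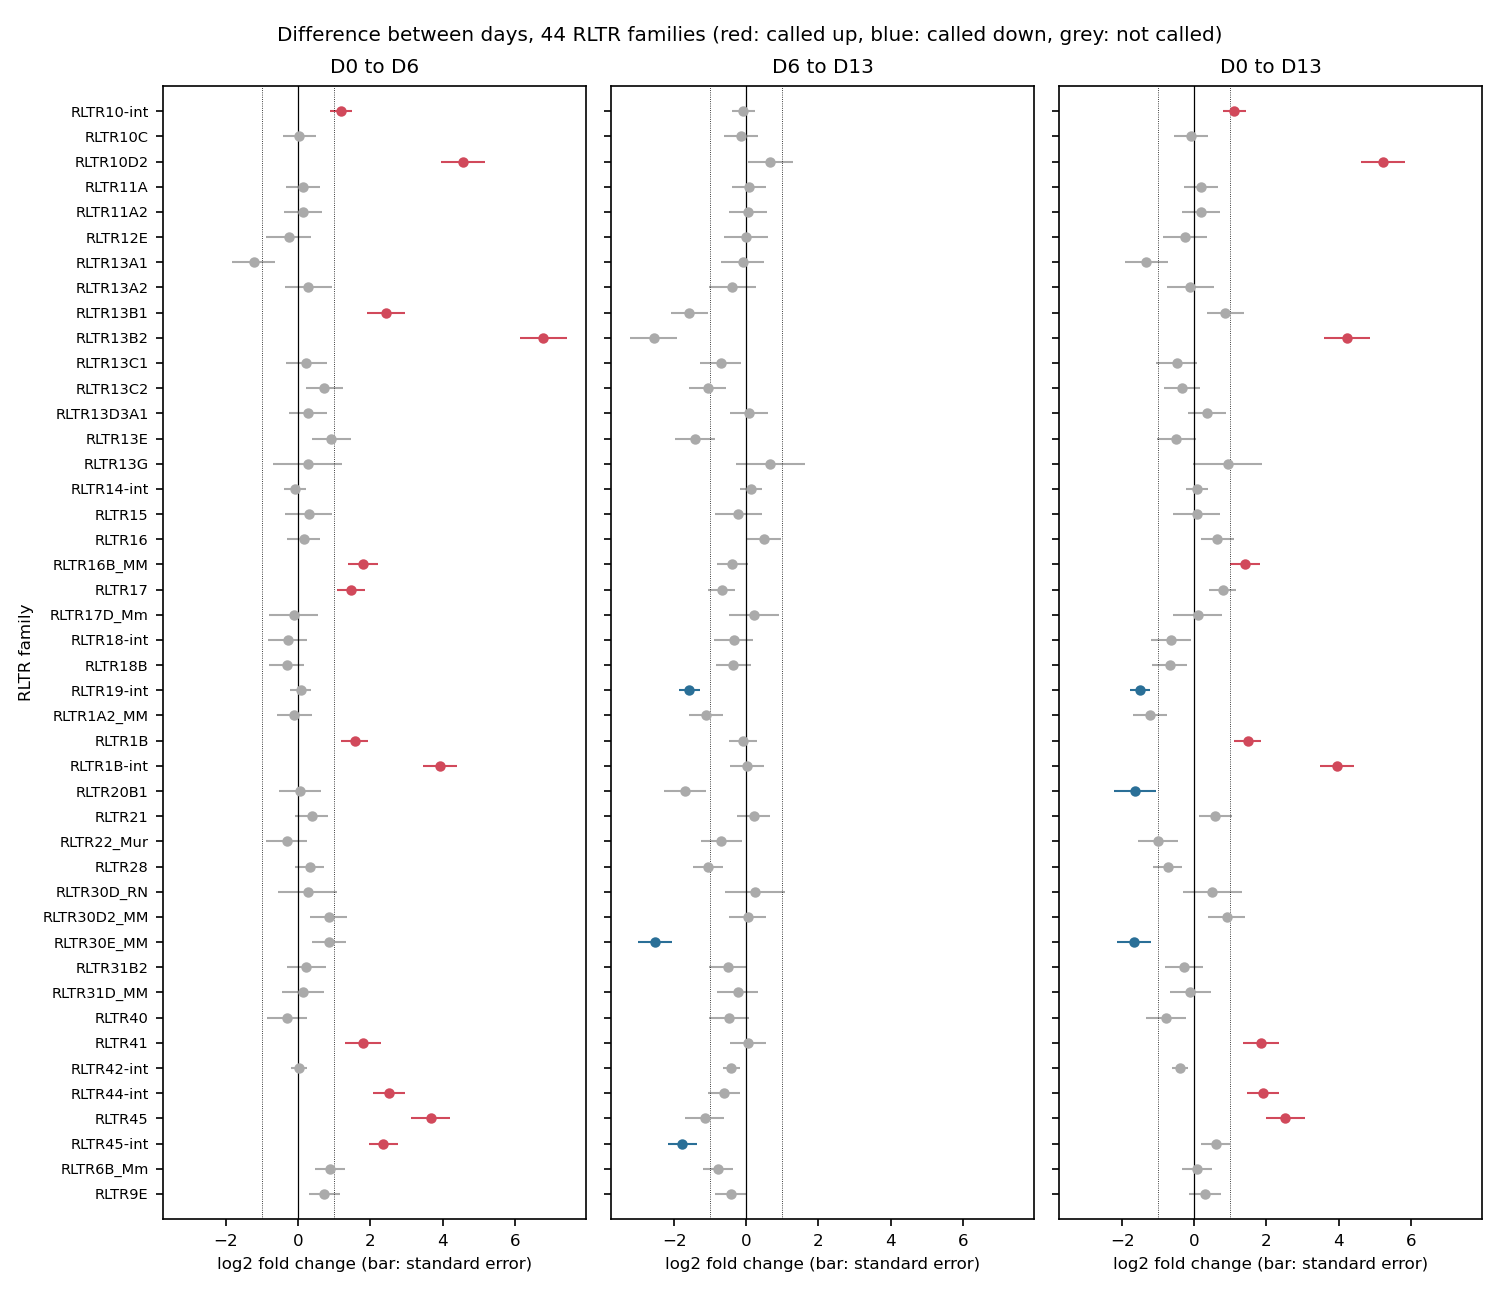
Differences between days for the 44 RLTR families. The x axis gives the log2 fold change and bars give its standard error (2 replicates per day); dotted lines mark 2-fold, red and blue points were called up and down, and grey points were not called. The largest difference is that of RLTR13B2 from D0 to D6, at 6.79.

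RLTR13B2 was the family with the largest difference. Its log2 CPM was -1.11 and -1.91 at D0, 6.13 and 4.44 at D6, then 3.46 and 1.98 at D13. The D0 samples were thus far below the rest, the D6 samples were the highest, and no 2 days overlapped. From 36 and 23 weighted reads at D0 the family went to 5507 and 1852 at D6 and to 787 and 296 at D13. The difference from D0 to D6 was 6.79 (standard error, SE, 0.65, limma adjusted p = 0.00017), or 111-fold. It was 4.23 between D0 and D13 (SE 0.65, limma adjusted p = 0.0012). The size of both depended on single samples: without D6 replicate 1 the first was 5.95 (62.0-fold) and without D6 replicate 2 it was 7.64 (199-fold), while the second was 3.49 without D13 replicate 1 and 4.97 without D13 replicate 2. Both calls were kept in each case. The fall from D6 to D13, -2.56 (SE 0.65, limma adjusted p = 0.058), fell short of the threshold.

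RLTR13B1, the other B subfamily, followed the same order of days at a smaller size. It stood at 0.06 and -0.57 at D0, 2.87 and 1.50 at D6, then 0.56 and 0.65 at D13. Both D6 samples were above the other 4 samples. The rise to D6 was 2.44 (SE 0.52, limma adjusted p = 0.0097), and the D0 to D13 difference of 0.86 (SE 0.52, limma adjusted p = 0.21) was not called. The call for RLTR13B1 was lost without D6 replicate 1, where the difference was 1.75, and the difference was 3.12 without D6 replicate 2.

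The other 7 RLTR13 subfamilies were not called in any comparison, so that 2 of the 9 were. Over the 9, the median difference from D0 to D6 was 0.28 and the range ran from -1.23 to 6.79. RLTR13A1 was at the low end, at 1.26 and 0.30 at D0, 0.25 and -1.16 at D6, then -0.53 and -0.57 at D13. Its difference of -1.23 from D0 to D6 had a 95% interval of -2.59 to 0.13 and missed the threshold (limma adjusted p = 0.18). RLTR13E had values of 1.59 and 0.88, then 2.91 and 1.40, then 0.47 and 1.01. Its D0 and D6 samples overlapped, and both D13 samples were below both D6 samples. RLTR13C2 was at 0.66 and -0.04 at D0, 1.50 and 0.58 at D6, then -0.34 and 0.28 at D13, with an overlap between D0 and D6. RLTR13A2, RLTR13C1 and RLTR13D3A1 had differences from D0 to D6 of 0.28, 0.23 and 0.28, each with a standard error above 0.5. RLTR13G split by replicate number rather than by day, at 2.61, 3.10 and 2.77 in the replicates numbered 1 and 0.26, 0.29 and 1.96 in those numbered 2.

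**Figure D2:**
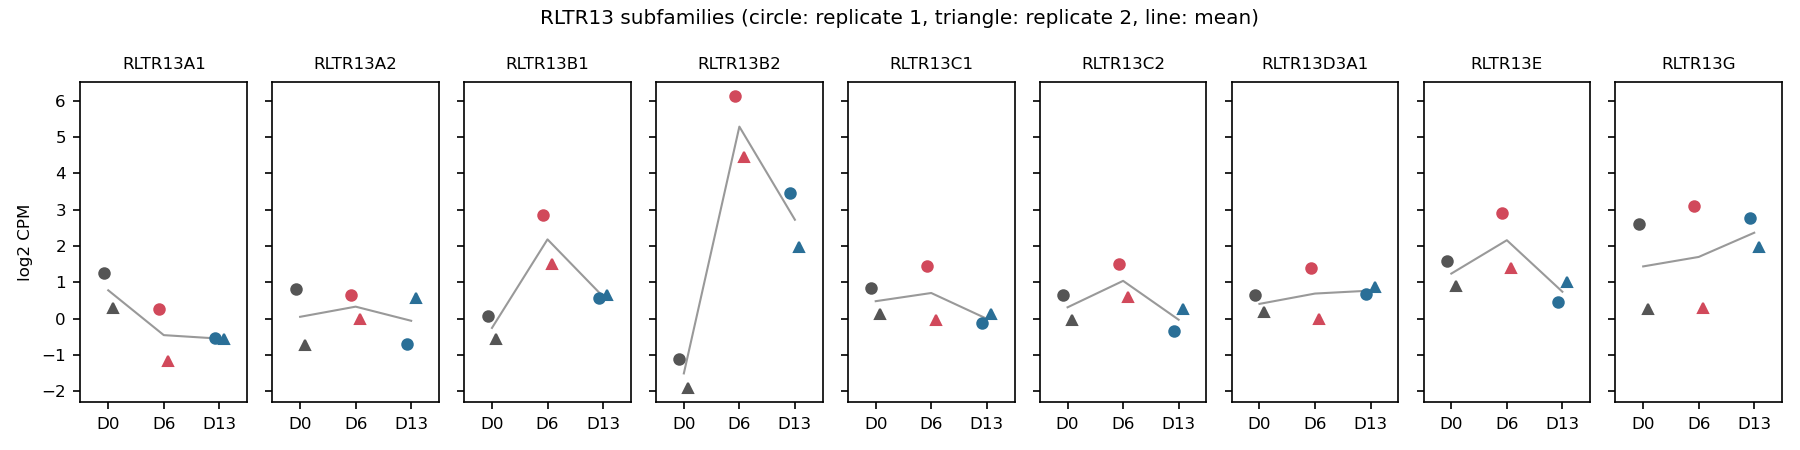
Log2 CPM of the 9 RLTR13 subfamilies in each sample, by day. Circles are replicate 1, triangles replicate 2 and lines join the day means. In RLTR13B2 and RLTR13B1 both D6 samples lie above the other 4 samples, and the circles of RLTR13G lie above its triangles on each day.

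Both RLTR45 families were up-regulated by D6, the LTR and the internal part. RLTR45, the LTR, was at -0.40 and -1.13 at D0, 3.26 and 2.55 at D6, then 2.43 and 1.08 at D13. All 3 days were separate for RLTR45. It rose by 3.67 to D6 (SE 0.54, limma adjusted p = 0.0014) and remained 2.52 above D0 at D13 (SE 0.54, limma adjusted p = 0.0059), a value that was 1.84 without D13 replicate 1 and 3.20 without D13 replicate 2. RLTR45-int had values of 6.29 and 5.58 at D0, 8.88 and 7.72 at D6, then 6.78 and 6.27 at D13. Here the D6 samples were the highest while D0 and D13 overlapped. The rise was 2.36 (SE 0.40, limma adjusted p = 0.0029) and the fall to D13 was -1.77 (SE 0.40, limma adjusted p = 0.046). The rise was called whichever sample was left out. The fall was called only without D6 replicate 2 and was lost without any of the other 5 samples in turn, at -1.19 without D6 replicate 1, -2.03 without D13 replicate 1, -1.52 without D13 replicate 2 and -1.77 without either D0 replicate. From D0 to D13 the difference of RLTR45-int was 0.59, with a 95% interval of -0.32 to 1.50. The level of RLTR45-int minus that of RLTR45 went from 6.69 and 6.71 at D0 to 5.61 and 5.17 at D6, and to 4.35 and 5.19 at D13. The row RLTR45 thus gained on the row RLTR45-int, which may itself hold LTR reads of merged copies. This change in the pair was not tested.

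RLTR1B-int, an internal part, rose by D6 and stayed up. Its log2 CPM was 5.19 and 3.95 at D0, 9.11 and 7.87 at D6, then 8.32 and 8.70 at D13. All 4 samples in 2i+vitC were above both D0 samples, and D6 and D13 overlapped. The difference was 3.93 from D0 to D6 (SE 0.47, limma adjusted p = 0.00051) and 3.94 from D0 to D13 (SE 0.47, limma adjusted p = 0.00034). With samples left out both stayed called, and the first ran from 9.88-fold without D6 replicate 1 to 23.4-fold without D6 replicate 2, the second, as a log2 difference, from 3.32 without D0 replicate 2 to 4.56 without D0 replicate 1. From D6 to D13 it was 0.02, with a 95% interval of -1.06 to 1.09. The LTR RLTR1B was at -0.14 and 0.02, 1.69 and 1.32, and 1.37 and 1.46, again with D0 apart from the later days. It differed by 1.56 at D6 (SE 0.38, limma adjusted p = 0.018) and by 1.48 at D13 (SE 0.38, limma adjusted p = 0.014). The D6 call was lost without D6 replicate 1 (1.38) and without D6 replicate 2 (1.75), and the D13 call was kept whichever sample was left out. Here the row RLTR1B-int, which may hold LTR reads of merged copies, moved further than the row RLTR1B. The level of RLTR1B-int minus that of RLTR1B was 5.32 and 3.93 at D0, 7.42 and 6.55 at D6, then 6.94 and 7.24 at D13. The third family of this number, RLTR1A2_MM, was not called, and went from 1.98 and 1.14 at D0 to 1.93 and 0.98 at D6, then 0.51 and 0.17 at D13.

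In the RLTR10 group, RLTR10D2 and RLTR10-int were up-regulated and RLTR10C was not called. RLTR10D2 was nearly absent at D0, with 5 and 8 weighted reads, against 212 and 119 at D6, then 353 and 145 at D13. On the log2 CPM scale these were -3.84 and -3.36, 1.43 and 0.49, and 2.31 and 0.96. The D0 samples stood far below the other 4, which overlapped. RLTR10D2 rose by 4.56 to D6 (SE 0.61, limma adjusted p = 0.00093), and its difference of 5.23 at D13 (SE 0.61, limma adjusted p = 0.0003) was the largest from D0 to D13 among the 44. The latter was 4.56 without D13 replicate 1 and 5.91 without D13 replicate 2, called in both cases. RLTR10-int was at 3.96 and 3.60, 5.38 and 4.55, and 4.98 and 4.79. Its D0 samples were the lowest, and its differences of 1.19 at D6 (SE 0.32, limma adjusted p = 0.025) and 1.10 at D13 (SE 0.32, limma adjusted p = 0.022) were the smallest of those called up. The first of these was lost without D6 replicate 1 (0.77) and without D0 replicate 2 (1.01), and the second without D0 replicate 2 (0.92) and without D13 replicate 1 (1.01). RLTR10C, the LTR associated with the element MMERVK10C, stood at 1.13 and 0.59, 1.25 and 0.54, and 0.37 and 1.15. All days overlapped for RLTR10C, and its D0 to D6 difference of 0.04 had a 95% interval of -1.03 to 1.10.

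Of the other families up at D6, RLTR44-int, an internal part, changed most. It was at 0.38 and 0.51 at D0, 3.59 and 2.35 at D6, then 2.48 and 2.22 at D13, so that D0 lay apart from the overlapping later days. It rose by 2.52 to D6 (SE 0.44, limma adjusted p = 0.0035) and was 1.90 above D0 at D13 (SE 0.44, limma adjusted p = 0.0086). The first was 1.91 without D6 replicate 1 and 3.14 without D6 replicate 2, called in both cases, and the second was lost without D13 replicate 1 (1.78). RLTR41 had values of -0.61 and -0.71, 1.66 and 0.61, and 1.59 and 0.79. RLTR16B_MM was at -0.27 and -0.39, 1.82 and 1.10, and 0.96 and 1.18. For both of these LTRs the D0 samples were the lowest. The D0 to D6 difference was 1.79 for RLTR41 (SE 0.50, limma adjusted p = 0.032) and 1.79 for RLTR16B_MM (SE 0.42, limma adjusted p = 0.015), and at D13 both were called up relative to D0, by 1.85 and 1.40. The D13 call of RLTR16B_MM was lost without any sample but D0 replicate 1, at 1.29 to 1.51, and in the fit of only D0 and D13. That of RLTR41 was lost without D0 replicate 2 (1.80) and without D13 replicate 1 (1.45). RLTR17 went from 1.43 and 1.22 at D0 to 2.96 and 2.61 at D6 and to 1.70 and 2.52 at D13. Its rise of 1.46 was called (SE 0.38, limma adjusted p = 0.023), and its D0 to D13 difference of 0.78 was not (limma adjusted p = 0.13). The D0 to D6 call of RLTR17 was lost without any 1 of its 4 samples of D0 and D6, at 1.28 to 1.64. That of RLTR41 was lost without D0 replicate 1 (1.84), D0 replicate 2 (1.74) or D6 replicate 1 (1.27), and that of RLTR16B_MM without D6 replicate 1 (1.43).

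**Figure D3:**
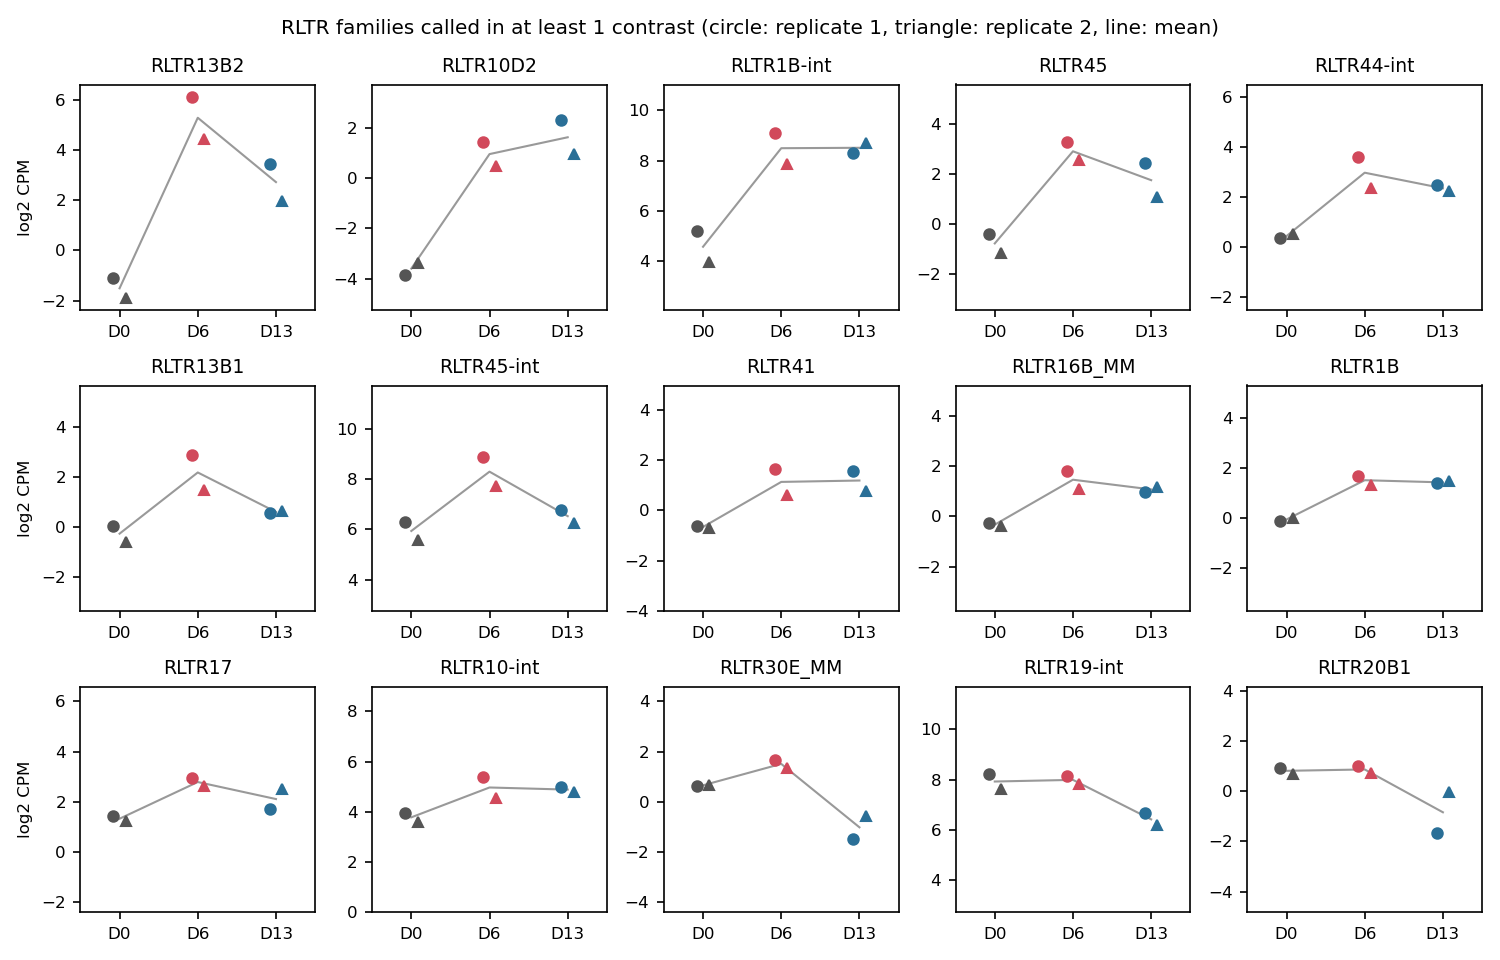
Log2 CPM in each sample of the 15 RLTR families called in at least 1 comparison, in the order of their D0 to D6 difference. Each panel spans the same number of log2 units, circles are replicate 1, triangles replicate 2, and lines join the day means. In the first 12 panels both D6 samples are above both D0 samples, and in the last 3 both D13 samples are below both D6 samples.

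Between D6 and D13, 3 of the 44 families fell and 0 rose past the threshold. All families together gave 3.97% down and 0% up in this comparison. At an unadjusted p under 0.05 the RLTR counts were 9 down and 0 up, with no count over all families. The median difference was -0.38 over the RLTR families and -0.35 over all families. The D6 samples served in this comparison and in that of D0 and D6, so the values of a family in the 2 comparisons are not independent of each other. Both D13 samples were below both D6 samples in 14 of the 44 RLTR families, where 21.9% of all families showed this. They were above in 1 of the 44, where 2.65% of all families showed this. That family was RLTR16, at 0.18 and -0.23 at D6, then 0.40 and 0.53 at D13. Besides RLTR45-int, the families that fell were RLTR30E_MM and RLTR19-int. RLTR30E_MM was at 0.64 and 0.67 at D0, 1.65 and 1.36 at D6, then -1.47 and -0.57 at D13. All 3 days were separate, with D13 the lowest, and the fall was -2.53 (SE 0.46, limma adjusted p = 0.029). RLTR19-int was at 8.23 and 7.61, 8.16 and 7.82, and 6.65 and 6.18. In this family D0 and D6 overlapped and both D13 samples were below the other 4. It fell by 1.57 from D6 to D13 (SE 0.28, limma adjusted p = 0.027), and its D0 to D6 difference was 0.07, with a 95% interval of -0.57 to 0.70. The calls of RLTR30E_MM and RLTR19-int were lost without D6 replicate 1 (-2.38 and -1.41), D6 replicate 2 (-2.67 and -1.74) or D13 replicate 1 (-2.07 and -1.81). The count of families down was 0 without D6 replicate 1 and 0 without D13 replicate 1, and 1 without D6 replicate 2.

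Between the end-points, 9 RLTR families were higher at D13 than at D0 and 3 were lower. In the same comparison 9.27% of all families were called up and 5.63% down. The RLTR counts at an unadjusted p under 0.05 were 9 and 4, with no count over all families. The median difference was 0.09 over the 44 families and -0.10 over all 302. The D0 samples served here and in the D0 to D6 comparison. The 9 families higher at D13 were RLTR10D2, RLTR13B2, RLTR1B-int, RLTR45, RLTR44-int, RLTR41, RLTR1B, RLTR16B_MM and RLTR10-int, with differences from 5.23 down to 1.10. The 3 lower were RLTR30E_MM at -1.67 (SE 0.46, limma adjusted p = 0.019), RLTR20B1 at -1.65 (SE 0.58, limma adjusted p = 0.047) and RLTR19-int at -1.51 (SE 0.28, limma adjusted p = 0.0032). RLTR20B1 was at 0.92 and 0.70 at D0, 1.01 and 0.72 at D6, then -1.67 and -0.01 at D13, where the D13 samples were the lowest and the farthest apart. The call of RLTR20B1 was kept only without D13 replicate 2 (-2.48) and was lost without any of the other 5 samples, at -1.54 without D0 replicate 1, -1.76 without D0 replicate 2, -1.65 without either D6 replicate and -0.82 without D13 replicate 1, and in the fit of only D0 and D13. The call of RLTR30E_MM was lost without D13 replicate 1 (-1.22), and that of RLTR19-int was kept whichever sample was left out. Without D13 replicate 1, 6 RLTR families in all were called from D0 to D13. Both D13 samples lay above both D0 samples in 15 of the 44 RLTR families, where 19.9% of all 302 families did so. They lay below in 9 of the 44, where 14.2% of all 302 did so.

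The level at D6 was also compared with the mean of D0 and D13. By this measure 7 RLTR families were higher at D6, where 9.93% of all families were called, and 0 were lower. A call says that D6 was above the mean of the other days, not above each of them. At an unadjusted p under 0.05, without a fold threshold, the RLTR counts were 15 and 0, and all families were not counted this way. RLTR13B2 had the largest difference, 4.68 (SE 0.56, limma adjusted p = 0.003), followed by RLTR45 with 2.41 (SE 0.46, limma adjusted p = 0.016) and RLTR45-int with 2.07 (SE 0.34, limma adjusted p = 0.0092). RLTR13B1, RLTR1B-int, RLTR30E_MM and RLTR44-int had values from 2.01 to 1.57. RLTR1B-int and RLTR44-int are among them although their D6 and D13 samples overlapped, and the mean of RLTR1B-int was higher at D13 (8.51) than at D6 (8.49). Without D6 replicate 1 a single family, RLTR13B2, was called at 3.84 (5.52 without D6 replicate 2), without D13 replicate 1 there were 3 and without D13 replicate 2 there were 4.

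The 29 families called in no comparison included RLTR9E, whose LTRs are known as enhancers bound by pluripotency factors in ES cells. RLTR9E was at 2.08 and 1.37 at D0, 2.95 and 1.95 at D6, then 2.22 and 1.83 at D13. All days overlapped, and the D0 to D6 difference of 0.72 had a 95% interval of -0.27 to 1.72. The internal parts RLTR14-int and RLTR42-int were well covered, with 2216 to 3532 and 1810 to 2864 weighted reads per sample. RLTR14-int was at 5.23 and 5.15, 5.38 and 4.84, and 5.63 and 4.88, and RLTR42-int at 5.17 and 4.95, 5.18 and 4.98, and 4.74 and 4.59. For these 2 families the limma 95% intervals of the D0 to D6 difference were -0.77 to 0.61 and -0.50 to 0.54. These intervals use a spread drawn toward the trend over all rows. RLTR42-int had replicate SDs of 0.16, 0.14 and 0.11 on D0, D6 and D13, and a 2-fold rise lay outside its interval. Those of RLTR14-int were 0.05, 0.38 and 0.53, so its interval may be too narrow to exclude a 2-fold rise. The internal part RLTR18-int stood at 1.37 and 0.97 at D0, 1.26 and 0.49 at D6, then -0.17 and 1.22 at D13, and the LTR RLTR18B at 1.63 and 0.93, 1.22 and 0.70, and 0.10 and 1.10. In RLTR18-int and RLTR18B D0 and D6 overlapped, as did D6 and D13. RLTR11A and RLTR15, which the study paired with genes in chimeric transcripts, differed by 0.13 and 0.29 from D0 to D6, with standard errors of 0.47 and 0.66.

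Of the 10 numbered groups with at least 2 families, 6 held both families called in some comparison and families called in none, 3 held no called family and 1 had each of its families called. Of the 3 RLTR30 families 1 was called, RLTR30E_MM, while the levels of RLTR30D2_MM were 0.17 and -0.63 at D0, 1.13 and 0.10 at D6, then 0.69 and 0.63 at D13. RLTR30D_RN had the widest gap between D0 samples, 0.88 and -1.80. RLTR16 and RLTR17D_Mm were not called beside RLTR16B_MM and RLTR17. The 3 groups without a call were RLTR11, RLTR18 and RLTR31, with 2 families each, and the group with both families called was RLTR45.

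RLTR families took 3.72% and 3.38% of the weighted transposon reads at D0, 6.80% and 5.18% at D6, then 7.06% and 6.17% at D13. The means were 3.55% ± 0.239, 5.99% ± 1.15 and 6.62% ± 0.63 (SD, n = 2). Both samples of D6 and of D13 were above both of D0, and D6 and D13 overlapped. With 2 samples against 2 the exact two-sided permutation test cannot go below p = 0.333, which is its value for D0 against D6 and for D0 against D13. It was p = 0.667 for D6 against D13 in the same exact test. Families ending in -int held 87.8% to 89.8% of the RLTR reads. RLTR19-int alone took 52.0% and 50.5% of them at D0, 17.4% and 26.7% at D6, then 14.0% and 9.94% at D13. RLTR1B-int went the other way, from 6.28% and 3.98% to 33.8% and 27.6% and then to 44.4% and 57.1%. RLTR45-int was at 13.5% and 12.4%, 28.8% and 24.8%, and 15.3% and 10.6%. Thus the largest share passed from RLTR19-int at D0 to RLTR1B-int at D13. The summed CPM of the 44 families was 579 and 387 at D0, 1636 and 847 at D6, then 718 and 730 at D13, and its mean went from 483 at D0 to 1242 at D6 and 724 at D13. Of the net gain of 758 CPM to D6, RLTR1B-int made 48.5%, RLTR45-int 36.6% and RLTR13B2 5.99%. The gain rested in large part on D6 replicate 1: without it the gain was 363 CPM, of which these families made 57.3%, 40.5% and 5.89%, and without D6 replicate 2 it was 1153 CPM.

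**Figure D4:**
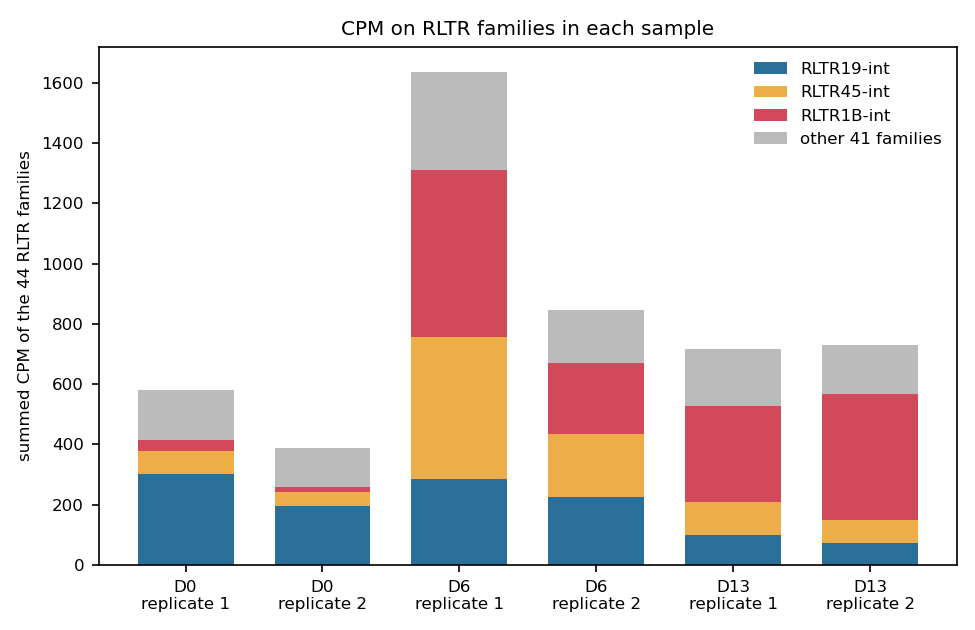
Summed CPM of the 44 RLTR families in each sample, split into 3 internal families and the other 41 families. RLTR19-int (blue) is the largest block at D0, and RLTR1B-int (red) is the largest block at D13, where it held 44.4% and 57.1% of the RLTR reads.

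The replicates of a day differed more for RLTR families than for genes. The median SD between replicates was 0.36 for RLTR families and 0.243 for genes at D0. It was 0.617 and 0.103 at D6, then 0.528 and 0.268 at D13. The median of replicate 1 minus replicate 2 over the 44 RLTR families was 0.50 for D0, 0.87 for D6 and -0.19 for D13, and at D6 the level was higher in replicate 1 for 44 of 44. Over all families these medians were 0.42, 0.77 and -0.78, while over genes they were -0.06, -0.02 and 0.01. The normalization, over rows that are mostly genes, holds the gene medians near level, so they do not measure the spread of genes. The 29 RLTR families called in no comparison had a median log2 CPM of 1.01 and 0.26 at D0, 1.26 and 0.29 at D6, then 0.39 and 0.87 at D13. The median family moved by 0.42 from D0 to D6 and by -0.46 from D6 to D13 (mean of the sample medians). RLTR families with a higher mean at D6 than at D0 numbered 35 of 44 as deposited and 18 of 44 relative to the median family, so no common direction is given for the families that were not called. Relative to the median family, both D6 samples were above both D0 samples in 17 of the 44 RLTR families, where 19.9% of all families showed this. They were below in 13 of the 44, where 45.7% of all families showed this. The replicate difference and the day of sampling bear on the same D6 samples, and the part of the replicate difference in the calls was not tested beyond leaving out samples.

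**Figure D5:**
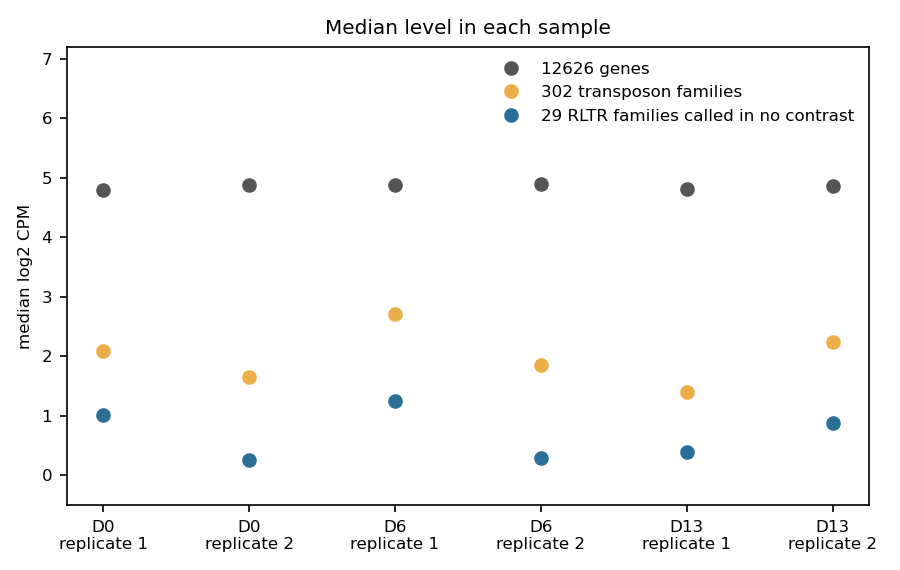
Median log2 CPM of genes, of all transposon families and of the 29 RLTR families called in no comparison, in each of the 6 samples. The gene medians are level, as the normalization over mostly genes holds them. The family medians are higher in replicate 1 at D0 and D6 and lower in replicate 1 at D13.

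The families outside the RLTR names with the most similar course over the 6 samples were sought for the 3 RLTR families with the largest rise to D6. These correlations describe 6 libraries that the families share, on log2 CPM, and were not tested. For RLTR13B2 they were ERVB4_2-I_MM (Pearson's r 0.996), ORR1B2-int (0.988) and BGLII_A (0.977). For RLTR10D2 they were IAP1-MM_I-int (0.992), IAPEy-int (0.989) and IAP-d-int (0.982), each an intracisternal A particle element. For RLTR1B-int they were LTRIS2 (0.981), MMERGLN_LTR (0.979) and IAPEy-int (0.977).

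Genes that silence LTR elements were measured in the same samples. Of 35 of 36 listed genes with a row, 3 fell by more than 4-fold from D0 to D6 and 0 rose, where 3.9% of genes were called down and 5.91% up. The 3 were Dnmt3a and Dnmt3b, the de novo DNA methyltransferases, at -2.41 (limma adjusted p = 0.00026) and -3.37 (limma adjusted p = 0.00016), and their cofactor Dnmt3l at -4.87 (limma adjusted p = 8.3e-05). Dnmt3l was at 8.20 and 7.97 at D0, 2.61 and 3.81 at D6, then 2.04 and 1.48 at D13. From D6 to D13 1 gene fell, Zfp819, a KRAB zinc finger gene, by 2.16 (limma adjusted p = 0.023), where 0.697% of genes were called down and 0.388% up. From D0 to D13, 5 fell and 0 rose, where 6.01% of genes were called down and 7.45% up, namely Dnmt3a, Dnmt3b, Dnmt3l, Zfp819 and Jarid2, a cofactor of polycomb. Trim28, which encodes KAP1, was at 10.87 and 10.44, 10.29 and 10.58, and 10.35 and 9.92, and Setdb1, its partner methyltransferase, at 7.46 and 7.46, 7.86 and 7.99, and 7.13 and 7.58; neither was called. At the 2-fold threshold of families, 5 of the 35 were down and 1 was up from D0 to D6, and all genes were not counted this way. The 1 up was Uhrf1, which guides Dnmt1 to replicated DNA, at 1.11 (limma adjusted p = 0.006). Those down under 4-fold were Jarid2 at -1.69 (limma adjusted p = 0.00064) and Suv39h1, an H3K9 methyltransferase gene, at -1.32 (limma adjusted p = 0.0058).

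Transcription factors of ES cells known to bind LTRs were measured for 14 of 14 listed genes. From D0 to D6, 4 rose and 0 fell by more than 4-fold, where 5.91% of all genes were called up and 3.9% down: Tbx3 by 3.85 (limma adjusted p = 3.4e-05), Tfcp2l1 by 3.21 (limma adjusted p = 0.00051), Prdm14 by 2.76 (limma adjusted p = 0.00016) and Nanog by 2.00 (limma adjusted p = 0.00029). From D6 to D13 0 were called in either direction in limma, beside 0.388% of all genes up and 0.697% down, and at D13 3 of the 4, Tbx3, Tfcp2l1 and Prdm14, were called above D0, where 7.45% of genes were called up.

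The study paired 11 genes with RLTR families that supply their first exon, a list it chose on these samples, so that its counts are not independent evidence. From D0 to D6, 3 of the 10 genes with a row rose and 0 fell, beside 5.91% up and 3.9% down over all genes: Mep1b, paired with RLTR9E, by 3.47 (limma adjusted p = 0.00016), Ccbl2, paired with RLTR44-int, by 2.23 (limma adjusted p = 0.0011) and Prrc1, paired with RLTR16B_MM, by 2.16 (limma adjusted p = 0.00028). Of their families RLTR44-int and RLTR16B_MM were called up at D6 and RLTR9E was not. Plcb4, paired with RLTR17, was at 4.83 and 4.69 at D0 and 4.34 and 4.75 at D6. It was not called at the 4-fold threshold of genes, while RLTR17 was called up at the 2-fold threshold of families. These are levels of the whole gene and the whole family. The study lists more reads at the RLTR17 to Plcb4 junction at D6 and D13 than at D0, and junctions were not analysed here. From D6 to D13, Mep1b fell by 2.95 (limma adjusted p = 0.014) and 0 rose, beside 0.697% down and 0.388% up over all genes. At D13, Prrc1 was called 2.35 above D0 (limma adjusted p = 0.00013) and Pla2g1b, paired with RLTR11A, fell by 2.12 (limma adjusted p = 0.0022), beside 7.45% up and 6.01% down over all genes.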

How the data were processed

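The 6 RNA-seq samples of J1 ES cells were analysed, with samples grouped by the day in their labels and 2 replicates per day. For the transposon tables, rRNA reads were discarded by the authors, who mapped the others onto mm10 with Bowtie 1.0.0 without mismatches, took out exonic reads and divided each read among its mapping sites, then summed over families of a reconstructed RepeatMasker annotation. Genes were mapped by the authors with TopHat2 2.0.6 and counted with HTSeq 0.6.1. The authors joined both tables, applied TMM normalization and deposited the log2 CPM from voom. From these deposited log2 values, reads were recovered with the voom offset of 0.5; 100% of gene values lay within 0.01 of a whole number, and family reads are weighted and not whole. Reads served for depths, shares and the voom alternative.

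Differences were tested with limma 3.58.1 (R 4.3.3) on the log2 CPM of all 6 samples, with a mean for each day, a mean-variance trend and no block, with p-values adjusted by Benjamini-Hochberg over the 12626 genes plus 302 families. A family was called above a 2-fold and a gene above a 4-fold difference, with an adjusted p under 0.05. The p-values rest on the spread between 2 replicates per day, which limma drew toward a trend over all rows, most of them genes. The median SD between replicates at D6 was 0.617 for RLTR families and 0.103 for genes. Where a family varied more than that trend, its SE and p-value are smaller than its own replicates alone would give. Python 3.11.15 with pandas 2.3.3, numpy 2.4.6 and scipy 1.17.1 made the tables, and matplotlib 3.10.9 the plots.

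The families, the gene lists and the tests were chosen with earlier results of these data known. Named families are those called in any comparison, the 5 with the largest differences in each, those numbered 9, 10, 13 and 45, the 10 with the most reads, every family ending in -int, those the study pairs with chimeric transcripts, and the 3 outside families most correlated with each of the 3 largest rises. RLTR16, RLTR30D2_MM, RLTR30D_RN, RLTR17D_Mm, RLTR1A2_MM and RLTR18B were named beyond this rule after their values were seen. Gene names in the files lack the capital G, so that Gab1 could not be looked up, and family names that were cut short were tested and not named. Alternatives were limma without the trend, voom weights, a filter of 10 reads in 2 samples, centring on the median family or gene, an adjusted p under 0.01, a fit of 2 days at a time, a replicate block and each sample left out. A fit of the families alone, centred on the median family, was added after seeing the data. Sequences of the LTRs and single copies were not analysed here.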

Additional observations from a re-analysis of the deposited data

How the results depend on the processing

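The number of RLTR families called depended on the centring, on the p threshold and on single samples. When each sample was centred on the median family, the calls went from 12 to 5 from D0 to D6, from 3 to 0 from D6 to D13, from 12 (9 up and 3 down) to 4 (4 up and 0 down) from D0 to D13 and from 7 to 1 for D6 against the other days. This centring also moves each gene value. In a fit of the families alone with the same centring, chosen after seeing the data, the counts were 9, 1, 10 (8 up and 2 down) and 3. At an adjusted p under 0.01 they were 7, 0, 6 (5 up and 1 down) and 2. When each sample was left out in turn they ranged from 6 to 12, from 0 to 3, from 6 to 11 and from 1 to 6. Without D13 replicate 2, the 3 calls from D6 to D13 held 2 of the original 3. Where a day kept 1 sample, that sample was assumed to vary like the others. Voom weights, the filter on low reads, limma without the trend, centring on the median gene and fits of 2 days kept the counts within 1.5 times. Of the 34 calls, each of a family in a comparison, 24 were lost with centring on the median family, 19 at an adjusted p under 0.01, 11 in the families alone, 17 without D6 replicate 1 and 13 without D13 replicate 1, and 0 changed direction in any alternative run; the causes of these losses were not tested. The D0 to D6 calls of RLTR10D2, RLTR13B2, RLTR1B-int, RLTR45 and RLTR45-int, the D0 to D13 calls of RLTR10D2, RLTR13B2, RLTR1B-int and RLTR45, and the D6 difference of RLTR13B2 from the other days held in each alternative run. The fall of RLTR45-int from D6 to D13 was lost in 11 alternatives, with an adjusted p from 0.002 to 0.74.

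With a replicate block, the number taken as a block, the counts were 12, 4, 13 and 8, and 0 of the 34 calls were lost. The calls gained were RLTR13B2 from D6 to D13 (-2.56, limma adjusted p = 0.0026), RLTR1A2_MM from D0 to D13 (-1.22, limma adjusted p = 0.033) and RLTR10D2 for D6 against the other days (1.95, limma adjusted p = 0.026). The labels do not say that a number marks a shared culture or day, and the replicate differences of the RLTR families correlated across families at 0.39 between D0 and D6, 0.18 between D0 and D13 and 0.25 between D6 and D13.

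With all counted reads as the denominator, the RLTR shares on D0, D6 and D13 were 0.0482%, 0.127% and 0.071%. The D6 samples gave 0.167% and 0.0856%, so the D6 mean rested in large part on replicate 1. Without the families ending in -int the RLTR share was 0.429%, 0.663% and 0.685% of transposon reads. There the D6 samples, 0.801% and 0.526%, overlapped those of D13, 0.732% and 0.637%. For the share of transposon reads with all 44 families, single samples gave 3.38% to 3.72% at D0, 5.18% to 6.80% at D6 and 6.17% to 7.06% at D13. Depth limits the LTR families most: RLTR10D2 had 5 and 8 weighted reads at D0.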
